A study of Saccharomyces cerevisiae with 2 samples.

Results

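The 52 strains described here are the deletions of the nuclear respiratory chain and ATP synthase genes of the yeast Saccharomyces cerevisiae. They were chosen by gene symbol as COX, QCR, ATP or SDH followed by a digit, together with COR1, CYT1 and RIP1, and make up 52 of 5325 named deletion strains with a value. By complex, 8 strains belonged to complex II (succinate dehydrogenase), 9 to complex III (cytochrome bc1), 17 to complex IV (cytochrome c oxidase) and 18 to ATP synthase. Of these, 32 lacked a structural subunit, and the other 20 lacked a gene for assembly, cofactor delivery or expression of a mitochondrial gene, or a paralog. The strains without COX4, COX13, COX26, ATP19 and SDH6 were not analysed here, and several core subunits are encoded by mitochondrial DNA.

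The experiment asked which haploid deletion strains change in abundance when LCD1 is overexpressed. The Lcd1 protein, also called Ddc2, binds Mec1, the kinase that starts the DNA damage checkpoint. A heterozygous diploid knockout pool of 5896 strains carried either a control plasmid or a plasmid with LCD1 under the galactose-inducible GAL1 promoter, each marked with URA3. After sporulation, haploids grew for 3 days at 30 °C in both arms, with galactose at 2% as the only carbon source. Each strain carries a pair of short DNA tags, amplified from genomic DNA, and the control arm was labelled with Cy5 and the LCD1 arm with Cy3 on both arrays. Dye and pool therefore cannot be told apart, and the titles number the arrays as experiments 1 and 2 without saying whether these were separate cultures, so the spread between them may be technical.

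The respiratory chain passes electrons from succinate (complex II) and other donors through coenzyme Q, complex III and cytochrome c to oxygen at complex IV, and ATP synthase uses the proton gradient built on the way. Yeast can live without respiration as long as it has a sugar to ferment, which is why strains without these genes can exist as haploids. Galactose can be fermented, but cells respire more on it than on glucose, and respiration is needed for sporulation, which here took place in diploids with 1 intact copy of each gene.

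A value is log2 of the tag signal with LCD1 overexpression divided by that with the control plasmid, centred on the median of each tag set of each array, and values of strains are means ± SD of 2 arrays (n = 2). The direction is the likely one, not a stated one. It rests on the strain without the essential LCD1 gene, which can grow only with the LCD1 plasmid. In this direction that strain stood highest of 5325 strains, at 2.63 ± 0.0086 (SD, n = 2). Its tags were far apart: array 1 gave 4.24 for the first and 1.01 for the second, and array 2 gave 4.97 and 0.30, so that the first tag carried most of the value, although all 4 readings had the same sign. If the deposited ratio ran the other way, every sign given here would turn. The arrays had 20000 and 20032 features with a value, no intensities are given in the table, and the number of arrays limits the precision.

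No strain of the respiratory chain or ATP synthase stood at least 2-fold apart between the pools on both arrays. That count was 0 of 52 in each direction, against 0.695% of all named strains at least 2-fold higher and 1.82% at least 2-fold lower. All named strains, here and below, include deletions of essential genes such as LCD1 and SMT3. No share or spread was computed without such strains. At the milder threshold of 1.5-fold on both arrays, QCR10 and SDH3 lay higher (2 of 52, against 3.87% of all strains) and COX20 lower (1 of 52, against 4.34%). The means of 49 of 52 strains lay within 1.5-fold of the centre, as did 84.7% of all strains. The plot of both arrays for every member shows the whole set inside the 2-fold lines except for COX17 on array 2.

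**Figure D1:**
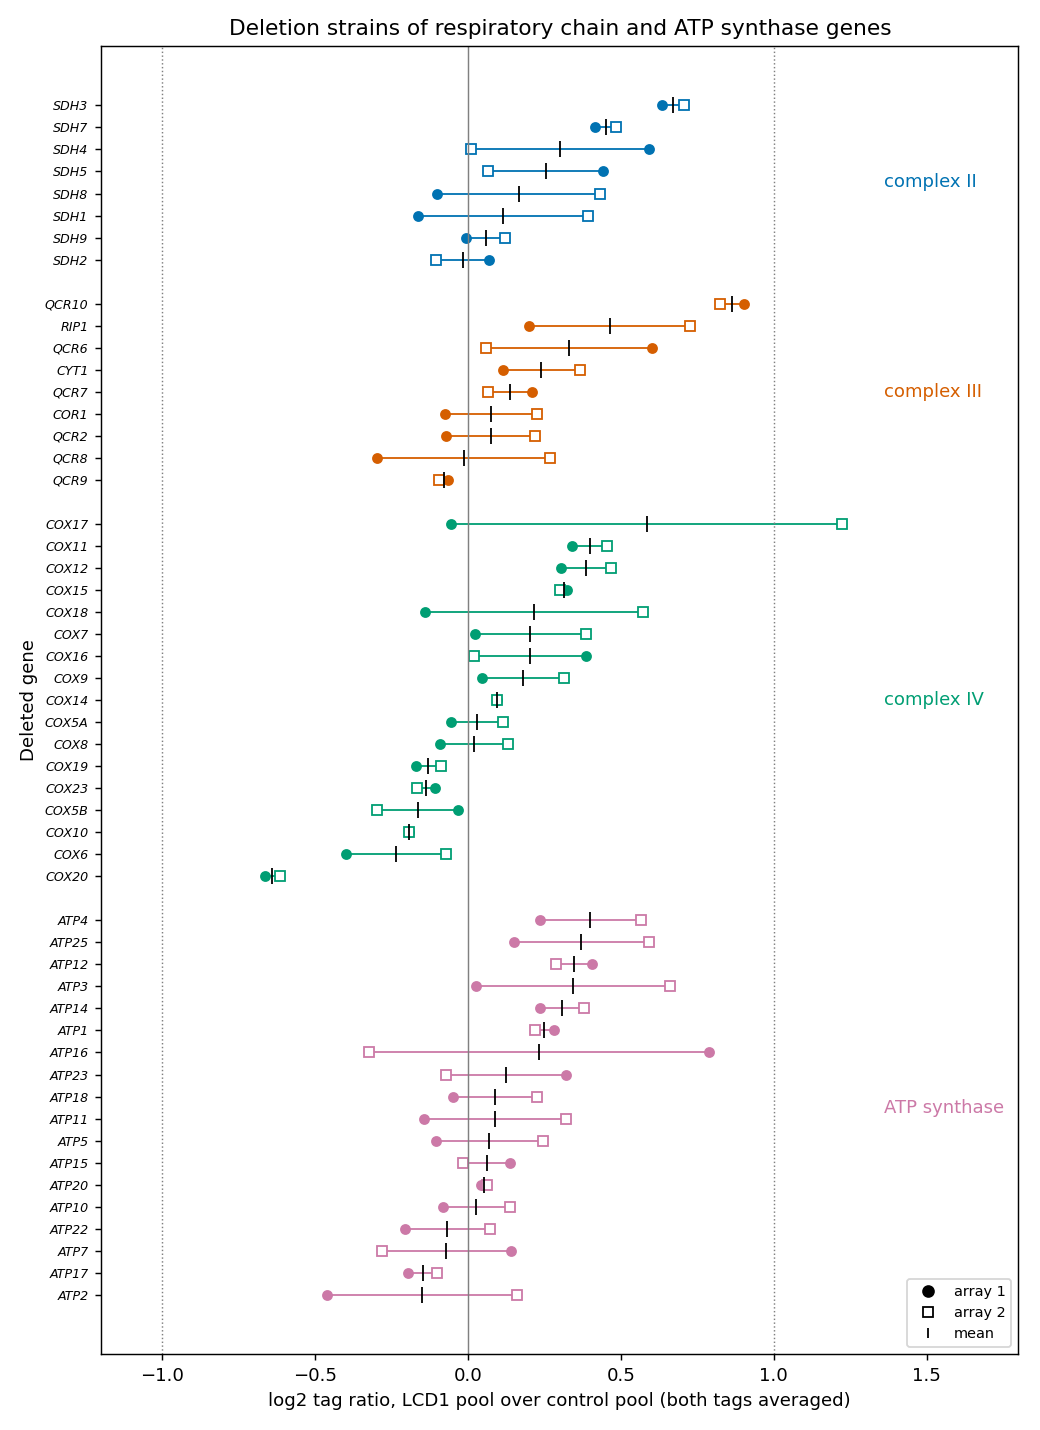
Log2 tag ratio, LCD1 over control (horizontal axis), for each of the 52 deletion strains (vertical axis, ordered by mean within each complex). Filled circles are array 1, open squares array 2 and black ticks the mean; the dotted lines mark 2-fold. QCR10 is highest at 0.86 and COX20 lowest at -0.64, and the arrays lie close together in both.

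By limma, 0 of 52 strains passed in either direction at an adjusted p under 0.05 over all strains, as was the case for all 5325 strains (0.0% higher and 0.0% lower). The lowest adjusted p among the members was 0.121. At an unadjusted p under 0.05 limma gave 5 members on the higher side (11.6% of all strains) and 1 on the lower side (10.8%), in all 11.5% of the members against 22.3% of all strains. The limma 95% interval of 46 of 52 strains lay wholly inside 2-fold either way. It reached beyond 2-fold for SDH3, QCR10, RIP1, COX17, COX20 and ATP16, so 2 arrays do not settle whether these changed by that much. The interval rests on tag-averaged values and leaves out disagreement between tags. For QCR9 it ran from -0.44 to 0.28, although the tag means were -0.47 and 0.31. An interval inside 2-fold therefore does not settle the value of a strain whose tags disagree.

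As a group, the members sat slightly above the centre. Their median was 0.12 (quartiles 0.01 and 0.31), beside a median of 0.04 (quartiles -0.20 and 0.29) over all strains. The mean of both arrays was above 0 in 39 of 52 members, against 54.1% of all strains. The arrays differed in how much of this they carried: array 1 gave a member median of 0.03 with 28 strains above 0, and array 2 gave 0.19 with 39 strains above 0. The offset of the members from all strains was thus 0.01 on array 1 and 0.18 on array 2, with a mean of 0.10 ± 0.12 (SD, n = 2). An exact sign-flip test over 2 arrays, two-sided, cannot give a p below 0.5, and for the member median it gave p = 0.5.

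The members also spread less than the strains at large. The SD over the means of the 52 strains was 0.25, against 0.48 over all 5325. A narrower spread was not particular to them. In the related lists described below it ran from 0.20 (coenzyme Q synthesis) to 0.45 (citric acid cycle), with 0.26 for assembly factors and translational activators and 0.30 for the vacuolar ATPase. Arrays differed by a median of 0.27 within a member and 0.22 within any strain, so the narrow spread of the means went with array differences of the same order as elsewhere. Of the 52 members, 23 lay above 0 on both arrays (against 37.7% of all strains), 8 lay below 0 on both (34.0%) and 21 had the arrays on opposite sides of 0.

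Complex II oxidises succinate to fumarate and so belongs both to the respiratory chain and to the citric acid cycle. Its 8 strains had a median of 0.21, with 7 above 0 and arrays that gave almost the same median, 0.24 and 0.26. The strain without SDH3, which encodes a membrane-anchor subunit that takes part in heme and quinone binding, was the highest of the complex. The first tag of this strain gave 0.47 (array 1) and 0.83 (array 2), and the second gave 0.80 and 0.58. All 4 readings were above 0 and overlapped between tags. The mean was 0.67 ± 0.05 (SD, n = 2), a ratio of 1.59, ranking 348 of 5325 from the top (limma adjusted p 0.139).

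The strain without the other membrane anchor, SDH4, had less even values. Array 1 gave 0.88 and array 2 -0.23 for the first tag, against 0.30 and 0.24 for the second, and the mean was 0.30 ± 0.41 (limma adjusted p 0.412). The first tag on array 1 thus carried most of the mean. The catalytic pair, the flavoprotein SDH1 and the iron-sulfur protein SDH2, lay near the centre. SDH1 read -0.21 and 0.13 on its first tag and -0.11 and 0.66 on its second, for a mean of 0.12 ± 0.39. SDH2 read -0.75 and -0.16 on the first tag and 0.89 and -0.05 on the second, for a mean of -0.02 ± 0.12. In SDH2 the tags pointed opposite ways on array 1 and cancelled in the mean.

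Among the assembly factors of complex II, the strain without SDH7, which helps the iron-sulfur subunit mature, gave the most even readings. They were 0.49 and 0.40 for the first tag and 0.34 and 0.56 for the second, so that all 4 lay within a narrow band above 0. The mean was 0.45 ± 0.05 (limma adjusted p 0.186). SDH5, needed to attach FAD to Sdh1, stood at 0.25 ± 0.27, and SDH8, a further assembly factor, at 0.16 ± 0.37. The strain without SDH9, a minor paralog of SDH1, read -0.13 and 0.00 on the first tag and 0.11 and 0.24 on the second. Its mean of 0.06 ± 0.09 was close to the median of all strains.

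Complex III carries electrons from coenzyme Q to cytochrome c. Its 9 strains, all without a structural subunit, had a median of 0.14, with 7 above 0. The strain without QCR10, a small accessory subunit, had the highest mean of all 52 members. The readings were 0.72 (array 1) and 0.91 (array 2) for the first tag, and 1.08 and 0.74 for the second. Every reading was above 0 and the arrays gave 0.90 and 0.82. The mean was 0.86 ± 0.06 (SD, n = 2), a ratio of 1.82, ranking 184 of 5325 from the top (limma adjusted p 0.121, 95% interval 0.50 to 1.23).

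Among the members, strains without the redox subunits of complex III also had means above 0. RIP1 encodes the Rieske iron-sulfur protein, and its strain read 0.10 and 0.58 on the first tag and 0.30 and 0.88 on the second. Array 2 was the higher array for both tags, and the mean was 0.46 ± 0.37 (limma adjusted p 0.265). The strain without CYT1, the gene of cytochrome c1, stood at 0.24 ± 0.18 with all 4 readings above 0. The strains without the core proteins COR1 and QCR2, large subunits on the matrix side, both had a mean of 0.07, with SDs of 0.21 and 0.20. For COR1 this mean stands for neither tag, since the tag means were -0.36 and 0.50. QCR2 read -0.04 and 0.40 on the first tag and -0.10 and 0.03 on the second.

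Among the remaining small subunits of complex III, QCR6, QCR9 and QCR8 had tags whose means lay on opposite sides of 0. QCR6 encodes an acidic subunit at the cytochrome c1 side, and its strain read 1.35 and 0.55 on the first tag against -0.14 and -0.44 on the second. The tags did not overlap and lay 1.24 apart, and the mean of 0.33 ± 0.38 therefore stands for neither of them. QCR9 showed the reverse order, -0.43 and -0.51 on the first tag and 0.30 and 0.32 on the second, with a mean of -0.08 ± 0.02. Its small SD reflects arrays that repeated each tag closely while the tags lay on opposite sides of 0. QCR8 read 0.37 and 0.20 on the first tag and -0.96 and 0.34 on the second, for -0.01 ± 0.40. QCR7, whose tag means were both above 0, stood at 0.14 ± 0.10.

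Complex IV reduces oxygen to water and depends on many helpers that insert copper and heme A or steer its mitochondrially encoded subunits. Its 17 strains had a median of 0.09, with 11 above 0, and held both the lowest member and the widest array gap. The median was -0.05 on array 1 and 0.11 on array 2, so its sign depended on the array. Over the strain means, deletions of the 7 structural subunits had a median of 0.03 and those of the 10 assembly genes 0.15. Each array gave the reverse order. On arrays 1 and 2 the medians were -0.03 and 0.13 for the subunits and -0.08 and 0.06 for the assembly genes.

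The lowest of all 52 members was the strain without COX20, which encodes a chaperone for the maturation of the mitochondrially made subunit Cox2. For the first tag array 1 gave -0.81 and array 2 gave -0.79, and for the second they gave -0.52 and -0.44. All readings lay below 0, and within a tag the arrays differed by less than the tags did. The mean was -0.64 ± 0.03 (SD, n = 2), a ratio of 0.642, ranking 311 of 5325 from the bottom (limma adjusted p 0.145). The gene next to COX20 on chromosome IV in the R64 gene table is HEM1, of the first step of heme synthesis, and its deletion strain read -0.69 and -0.46 on arrays 1 and 2. The neighbour on the other side, IVY1, stood at -0.09 ± 0.05. HEM1 and IVY1 were looked up after the value of COX20 was seen. Whether a shared position plays a part in the value of COX20 was not tested.

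Values of the copper delivery genes of complex IV lay on both sides of 0. The strain without COX17, the copper chaperone of the intermembrane space, had the highest mean of the complex, 0.58 ± 0.91 (limma adjusted p 0.396), and the largest SD of all members. On array 1 its tags read 0.17 and -0.29, and on array 2 0.28 and 2.16. The second tag on array 2 alone took it past 2-fold. COX11, which places copper in the Cox1 subunit, read 0.70 and 0.65 on the first tag and -0.02 and 0.26 on the second, for a mean of 0.40 ± 0.08 (limma adjusted p 0.210). The strains without COX19 and COX23, small copper-related proteins of the intermembrane space, had means of -0.13 ± 0.06 and -0.14 ± 0.04. For COX19 this mean stands for neither tag, since the first read -0.64 and -0.52 and the second 0.30 and 0.34. COX23 was below 0 in all 4 readings.

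Heme A is made from heme by the products of COX10 and COX15 in consecutive steps. The strain without COX10 read -0.09 and -0.29 on the first tag and -0.30 and -0.09 on the second, for a mean of -0.19 ± 0.0002. The strain without COX15 stood at 0.31 ± 0.02, with readings from -0.05 to 0.65. In both strains the tags moved opposite ways between the arrays, so the small SDs leave out the spread of single readings. The limma adjusted p values of COX10 and COX15 were 0.396 and 0.256, and the intervals of both strains included 0. Of the other assembly genes, COX18, needed to export the tail of Cox2, stood at 0.22 ± 0.50, COX16 at 0.20 ± 0.26 and COX14, a regulator of Cox1 synthesis, at 0.09 ± 0.0007. The tag means of COX14 were -0.09 and 0.28, so its small SD hides tags on opposite sides of 0.

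Among the small structural subunits of complex IV, COX12 gave the highest strain. It read 0.39 and 0.33 on the first tag and 0.22 and 0.61 on the second, all above 0, for a mean of 0.39 ± 0.11 (limma adjusted p 0.221). COX6 gave the lowest of this subset, with -0.36 and -0.17 on the first tag, -0.44 and 0.03 on the second and a mean of -0.23 ± 0.23. The strains without COX7, COX9 and COX8 had means of 0.20, 0.18 and 0.02.

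COX5A and COX5B encode alternative forms of the same subunit, used with and without ample oxygen, respectively. The COX5A strain read -0.06 and 0.16 on its first tag and -0.05 and 0.07 on its second, for 0.03 ± 0.12. The COX5B strain read -0.14 and -0.27 and then 0.08 and -0.33, for -0.16 ± 0.19. On array 1 the pair stood together, COX5A at -0.05 and COX5B at -0.03, while on array 2 they stood at 0.11 and -0.30. The limma intervals of the 2 strains, -0.35 to 0.41 and -0.58 to 0.25, overlapped widely.

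ATP synthase joins a catalytic F1 head to a membrane Fo rotor and stator. Its 18 strains had a median of 0.09, with 14 above 0, and the narrowest range of the 4 complexes, -0.15 to 0.40. None of them had an unadjusted limma p under 0.05 (0 of 18, against 22.3% of all strains). The median was 0.23 for the 5 F1 strains and 0.07 for the 7 Fo and stalk strains. It was 0.11 for the 6 strains without an assembly or expression gene. The F1 median is the value of the ATP16 strain, described below. On arrays 1 and 2 the medians were 0.14 and 0.16 (F1), 0.04 and 0.23 (Fo and stalk) and 0.03 and 0.21 (assembly or expression). The F1 strains were thus highest on array 1 and lowest on array 2.

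Of the F1 subunits, alpha (ATP1) and beta (ATP2) together form the catalytic ring. ATP1 had all 4 readings above 0 and a mean of 0.25 ± 0.05. ATP2 read -0.95 and -0.27 on the first tag and 0.03 and 0.58 on the second, for a mean of -0.15 ± 0.44, so its tags and arrays were on opposite sides of 0. On array 2 the pair stood close, at 0.22 and 0.16, and on array 1 at 0.28 and -0.46, and their limma intervals overlapped. ATP16 encodes the delta subunit of the central stalk, whose loss is known to make cells shed mitochondrial DNA. Its readings were -0.25 and -0.55 on the first tag and 1.83 and -0.09 on the second. A single reading of 1.83 lifted the mean to 0.23 ± 0.79, and the tags lay 1.27 apart. The strains without the gamma subunit ATP3 and the epsilon subunit ATP15 had means of 0.34 ± 0.45 and 0.06 ± 0.11.

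The membrane part and stator of ATP synthase gave small values. The strain without ATP4, the stator subunit b, read 0.49 and 0.49 on the first tag and -0.01 and 0.64 on the second. Its mean of 0.40 ± 0.23 (limma adjusted p 0.247) was the highest of the complex. ATP14, a further stator subunit, stood at 0.31 ± 0.10 with all readings above 0. ATP18 stood at 0.09 ± 0.20, with tag means of 0.415 and -0.239 on opposite sides of 0. ATP5, which links the stator to the head, stood at 0.07 ± 0.25. ATP20, a subunit involved in dimer formation, stood at 0.05 ± 0.01. ATP7 read 0.15 and -0.46 on the first tag and 0.13 and -0.11 on the second, for -0.07 ± 0.30. ATP17 read -0.42 and -0.19 and then 0.03 and -0.02, for -0.15 ± 0.07.

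Among the assembly genes of ATP synthase, ATP11 and ATP12 encode chaperones of the beta and the alpha subunit. The ATP12 strain read 0.29 and 0.23 on the first tag and 0.52 and 0.34 on the second, all above 0, for a mean of 0.35 ± 0.08 (limma adjusted p 0.239). ATP11 stood at 0.09 ± 0.33. ATP25, needed for the messenger RNA of the mitochondrially encoded rotor subunit, read 0.13 and 0.60 on the first tag and 0.17 and 0.58 on the second, so that array 2 was higher for both tags, and its mean was 0.37 ± 0.31. The strains without ATP10, ATP22 and ATP23, which act on the mitochondrially encoded subunit Atp6, had means of 0.03, -0.07 and 0.13. Their SDs were 0.15, 0.20 and 0.28. Each of these strains had tag means on opposite sides of 0, the widest apart being those of ATP23 at 0.49 and -0.24.

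Differences between complexes were small, and no test over 2 arrays could pass for any of the 6 pairs. The median of complex II exceeded that of complex IV by 0.30 on array 1 and 0.14 on array 2, with a mean of 0.22 ± 0.11 (SD, n = 2), the widest of the pairs. Complex III exceeded complex IV by 0.17 and 0.11, and complex IV minus ATP synthase was -0.15 and -0.07. Complexes III and ATP synthase lay closest, 0.02 and 0.04 apart. Every pair kept its direction on both arrays, and each gave an exact sign-flip p of 0.5, also 0.5 after Benjamini-Hochberg adjustment over the 6 pairs. With structural subunits only, complex II minus complex III was 0.22 on array 1 and -0.02 on array 2.

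**Figure D2:**
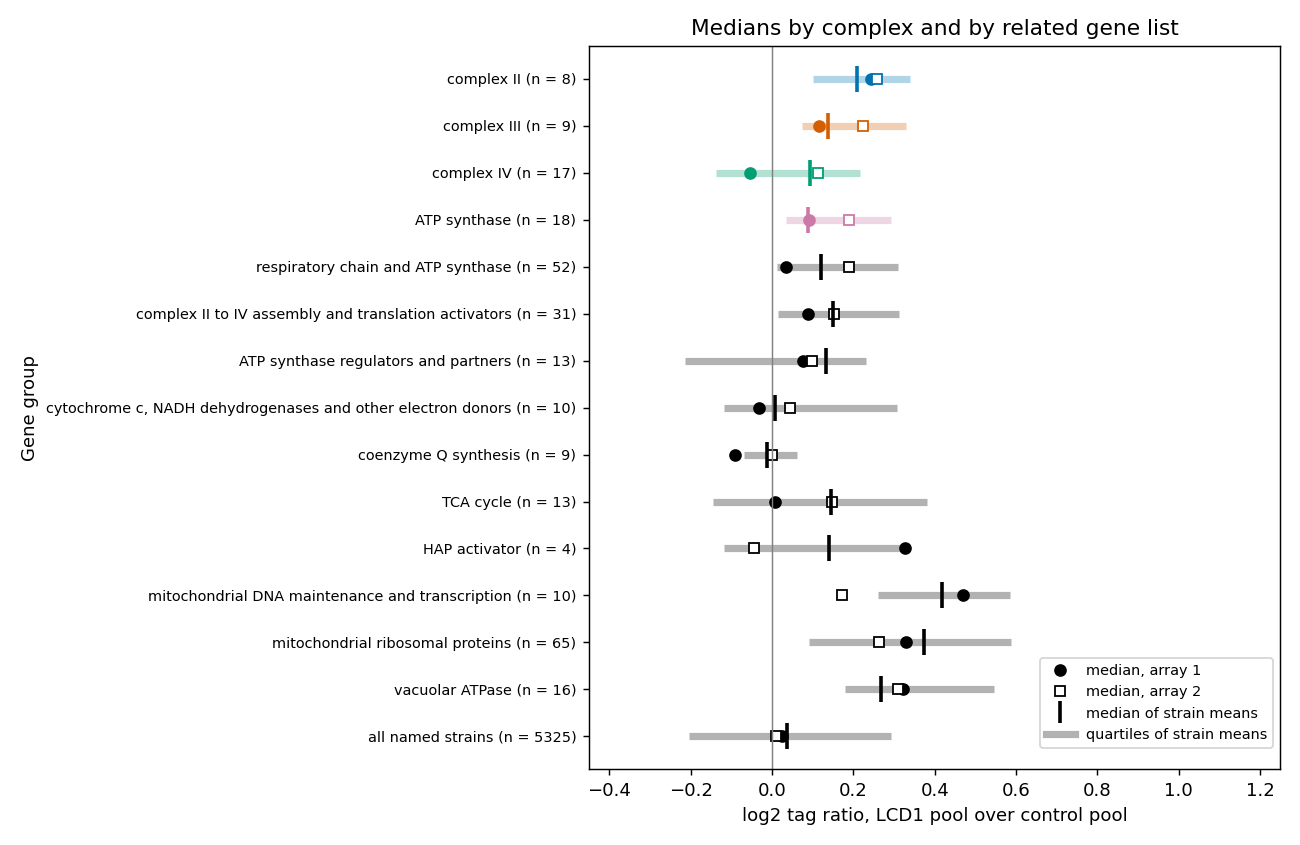
Medians of the log2 tag ratio (horizontal axis) for the 4 complexes, for all members together, for related gene lists and for all named strains (vertical axis, with the number of strains). Circles and squares are the medians of array 1 and array 2, ticks the median of the strain means, and bars their quartiles. The medians of the complexes lie between 0.09 and 0.21, and those of mitochondrial ribosomal proteins and mitochondrial DNA maintenance at 0.37 and 0.42.

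The tags of a member often disagreed. Of the 52 strains, 23 had the means of the 2 tags on opposite sides of 0, a share of 44.2%, beside 37.9% over all strains. In 15 of these the first tag was below 0 and the second above, and in 8 the reverse held. Over the 52 members, which share pools and arrays, Pearson's r between tags was -0.07 on array 1 and 0.30 on array 2 (Spearman's rho -0.03 and 0.34). Between arrays r was 0.60 for the first tag and -0.02 for the second (rho 0.62 and 0.10), beside 0.66 and 0.30 over all 5325 strains. The second-tag readings of the members thus hardly repeated from array to array.

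The median of the first tag minus the second was 0.01 on array 1 and -0.16 on array 2, or -0.08 ± 0.12 (SD, n = 2), with an exact sign-flip p of 1. On array 1 the members had medians of 0.10 (first tag) and 0.03 (second tag), and on array 2 of 0.17 and 0.26. All 4 were above 0, the centre of each tag set. Complexes II and III kept 1 sign on both arrays, with the second tag higher by 0.19 ± 0.02 and 0.23 ± 0.03. The widest tag gaps were those of ATP16, QCR6 and ATP2, the last at 0.91.

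**Figure D3:**
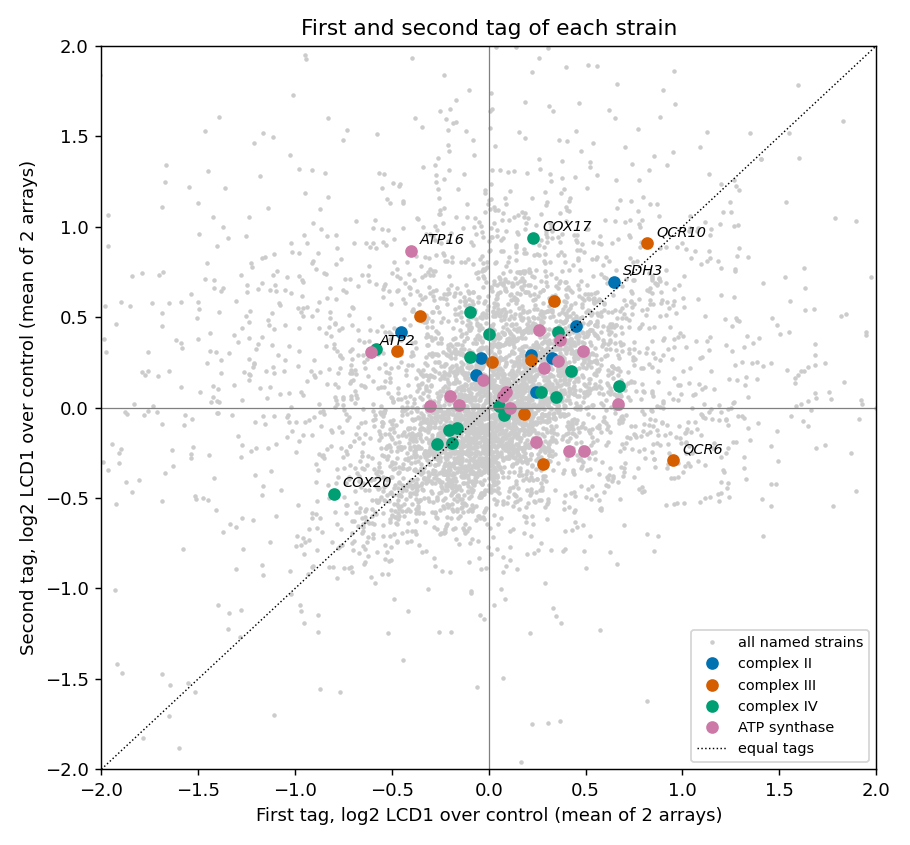
Mean of 2 arrays of the first tag (horizontal axis) and of the second tag (vertical axis), as log2 tag ratios, LCD1 over control. Coloured points are the 52 members by complex, grey points all named strains (174 of 5309 lie outside the plotted range), and the dotted line marks equal tags. QCR10 and SDH3 lie near the line, and QCR6 and ATP16 far from it on opposite sides. COX20 is below 0 for both tags, with a gap of 0.32 between them.

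All 4 tag readings were above 0 in 10 members, SDH3, SDH7, QCR10, RIP1, CYT1, COX12, ATP25, ATP12, ATP14 and ATP1, beside 16.8% of all strains. They were all below 0 in 3 members, COX20, COX10 and COX23, beside 16.4%. The 3 all belong to complex IV, where 3 of 17 strains is near the share of all strains. With 10 of 52, the share on the higher side was near that of all strains.

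Most members had 1 array feature for each tag, and 5 had more. ATP3, COX17 and ATP20 had 6 features for each tag, which shows how far a reading repeats within an array. For ATP20 the SD over 6 features was between 0.04 and 0.14 in each tag and array. For ATP3 it was between 0.51 and 0.92, and its second tag on array 1 ran from -1.89 to 0.72 with a mean of -0.64. The SD over features was thus larger than the strain's mean of 0.34 in each tag and array.

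For COX17 all 6 features of the second tag on array 2 were high, from 1.40 to 3.17, while the same tag on array 1 ran from -1.41 to 0.08. The ranges did not overlap. The deposited ratios on array 2 were between 0.10 and 0.34, where steps of a hundredth are coarse on a log scale. The first tag of COX17 ran from -0.07 to 0.47 on array 1 and from 0.05 to 0.67 on array 2, so the gap between arrays was in the second tag alone.

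**Figure D4:**
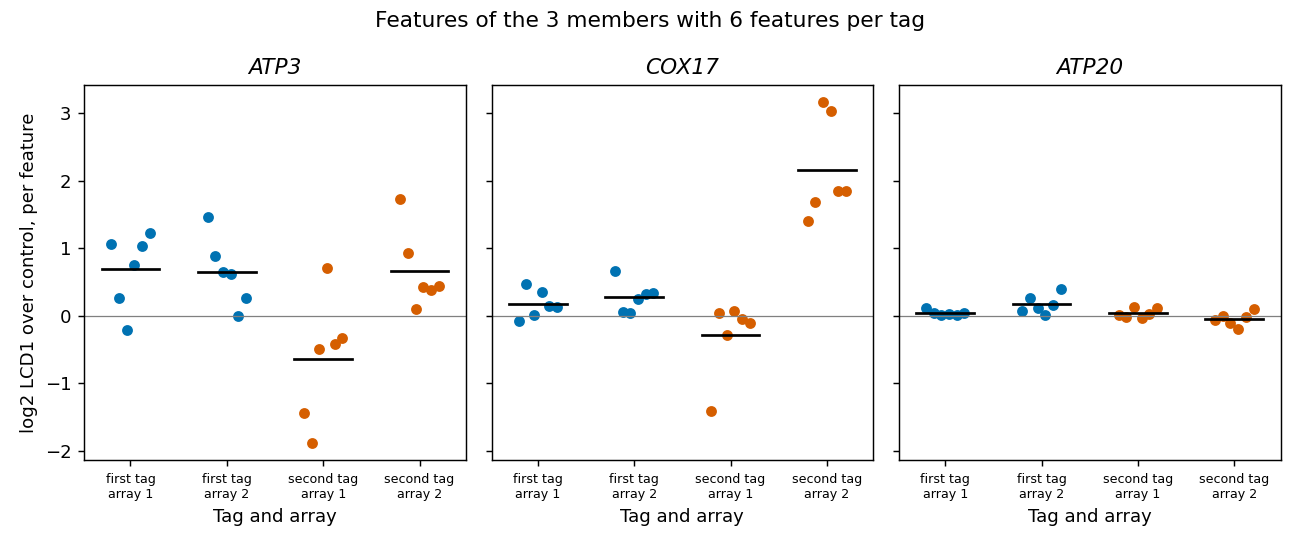
Log2 tag ratio, LCD1 over control (vertical axis), for each of the 6 features per tag of the strains without ATP3, COX17 and ATP20, by tag and array (horizontal axis); black lines are means. COX17 stands at 2.16 for the second tag on array 2 and at -0.29 on array 1, ATP3 spreads widely, and ATP20 stays close to 0.

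Other genes that serve the respiratory chain gave small values too. The 31 measured strains without an assembly factor or translational activator of complexes II to IV had a median of 0.15, with 23 above 0, 0 called by limma's adjusted test and 5 higher and 1 lower at an unadjusted p under 0.05, or 19.4% against 22.3% of all strains. Their median was 0.09 on array 1 and 0.15 on array 2. They ran from PET100 (-0.45 ± 0.23), an assembly factor of complex IV, to PET494 (0.70 ± 0.79), an activator of Cox3 synthesis. The 13 strains without regulators and partners of ATP synthase had a median of 0.13, from AEP1 (-0.32 ± 0.01) to AEP2 (0.44 ± 0.24), both needed for expression of the mitochondrial gene of the rotor ring. The tag means of AEP1 were -0.71 and 0.07, a gap that its small SD leaves out.

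Lists of strains that lack electron carriers or donors had medians near the centre, with single strains on both sides of it. The 10 strains without cytochrome c, NADH dehydrogenase or other donor genes had a median of 0.01, from NDE1 (-0.34 ± 0.45), an external NADH dehydrogenase, to CYC3 (0.44 ± 0.33), which attaches heme to cytochrome c. The 9 measured strains without coenzyme Q synthesis genes had a median of -0.01 with 3 above 0, from COQ1 (-0.25 ± 0.17) to COQ10 (0.37 ± 0.10). Citric acid cycle strains had a median of 0.15 over 13, with 0.01 on array 1 and 0.15 on array 2, and ran from LPD1 (-0.80 ± 0.60), a dehydrogenase subunit, to the fumarase gene FUM1 (0.70 ± 0.03). The 4 measured strains of the HAP activator, which switches on respiratory genes, ran from HAP4 (-0.38 ± 0.01) to HAP3 (0.39 ± 0.45). By limma's adjusted test 0 strains of these lists passed, and at an unadjusted p under 0.05 the citric acid cycle list held 2 higher and 2 lower (30.8%) and the HAP list 1 lower (1 of 4 strains), against 22.3% of all strains.

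Strains without genes that keep or express mitochondrial DNA had higher medians over both arrays. The 10 strains of DNA maintenance and transcription had a median of 0.42, with 9 above 0, from MSH1 (-0.52 ± 0.11) to MTF1 (0.90 ± 0.62). Their median was 0.47 on array 1 but 0.17 on array 2, where the respiratory members stood at 0.19. The 65 strains without a mitochondrial ribosomal protein had a median of 0.37, with 54 above 0, from MRPL39 (-0.78 ± 0.01) to MRPL36 (1.42 ± 0.88). The 16 strains of the vacuolar ATPase, another rotary proton pump, had a median of 0.27, with 14 above 0, from STV1 (-0.45 ± 0.08) to VMA3 (0.80 ± 0.02). The respiratory chain and ATP synthase strains lay below the mitochondrial ribosomal protein strains by 0.29 on array 1 and 0.07 on array 2 in their medians (mean -0.18 ± 0.16), and below the vacuolar ATPase strains by 0.29 and 0.12 (mean -0.20 ± 0.12). Each difference had the same direction on both arrays and an exact sign-flip p of 0.5, the smallest possible. At an unadjusted limma p under 0.05 the ribosomal list held 22 higher and 4 lower (40.0%), the vacuolar list 6 and 1 (43.8%) and the respiratory members 5 and 1 (11.5%), against 22.3% of all strains.

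Neighbouring genes on the chromosomes were also compared. Over 97 pairs of a member and an adjacent gene with a measured strain, Pearson's r was 0.09, and the median of the 96 adjacent strains was 0.04, beside 0.04 over all strains. SDH7, at 0.45, lies beside SMT3, the essential gene of the ubiquitin-like modifier, whose strain read -1.47 on array 1 and -0.93 on array 2. Other pairs lay on the same side of 0, such as QCR6, at 0.33, beside PHO4, whose strain read 1.69 and 1.73. Both pairs are examples that no rule fixed in advance. The strains of both genes next to QCR10 were not analysed here.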

How the data were processed

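Tags were measured on 2 two-colour arrays. Images were read with the GenePix program, version 5.1, per the labels. The deposited values are log2 ratios of the dyes, read as such because every value turned back to a linear scale is a whole hundredth within 0.001. Their numerator dye and normalization (not given in the sources used here) stay unknown, and both columns had a median of -0.136. Features 1 to 10971 and those above were taken as the tag sets, called first and second. Names came from the platform annotation, and all 52 members matched the R64 gene table. Features of a gene were averaged per tag, each tag set was centred per array on its median, tags were averaged and the sign was turned.

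All 5325 strains were fitted against 0 with limma 3.58.1 in R 4.3.3 (lmFit, eBayes, two-sided, Benjamini-Hochberg over all strains, threshold 0.05). The fit had 2.42 degrees of freedom from the prior and 1 from the residuals. The code was tested on simulated data. Medians of groups were compared over arrays by an exact sign-flip test. The members, lists and tests were chosen with earlier results of these data known. Full tag values are given for the 3 highest and 3 lowest strains of each complex, the 3 widest tag gaps, and COX5A and COX5B; of other lists, the highest and the lowest. Mitochondrial ribosomal and vacuolar ATPase genes were taken by symbol. No sequences were at hand, so none are shown.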

Additional observations from a re-analysis of the deposited data

How the results depend on the processing

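No paired analysis was possible because both arrays belong to 1 comparison and no second group shares their numbers. limma could not be fitted with 1 array. The count of members called stayed at 0 in every limma fit run. A fit on 4 tag values per strain, which counts tags as replicates, called 24 strains and 0 members, with QCR10 lowest among members (adjusted p 0.0596, unadjusted p under 0.05 in 10 members). Without centring the median of all strains moved from 0.04 to 0.16 and that of the members to 0.25, so the offset between them stayed at 0.08. Complex medians without centring were 0.33 (II), 0.26 (III), 0.22 (IV) and 0.21 (ATP synthase). With the sign as deposited the member median was -0.12. With the first tag alone the medians were 0.23 (II), 0.22 (III), -0.0003 (IV) and 0.18 (ATP synthase), and with the second alone 0.28 (II) and 0.26 (III). Complex II minus ATP synthase was 0.045 with the first tag and 0.22 with the second, complex III minus ATP synthase was 0.0068, 0.18 and, after scale normalization, 0.038, and complex III minus IV was 0.26 with the second tag. The cause of these shifts was not tested.

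Array 1 alone and array 2 alone gave member medians of 0.03 and 0.19. In the same order, complex medians were 0.24 and 0.26 (II), 0.11 and 0.22 (III), -0.055 and 0.11 (IV) and 0.090 and 0.19 (ATP synthase). Without array 1, 1 member (COX17) was past 2-fold, without array 2, 0, and at 1.5-fold on both arrays 3 were. Over all alternatives, 26 of 162 values of the 27 strains given in full changed sign, at most 7 under any 1 alternative. Of 9 related lists 8 had a median above 0, and under the alternatives 7 to 9 did. Their medians moved by more than the spread between arrays in 28 of 54 values and changed sign in 5. The citric acid cycle median was 0.043 with the first tag alone and 0.018 with the second. Signal over background is unknown here, so readings at background cannot be told from real ones.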
